A study of Mus musculus with 96 samples.

Results

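The Hox genes of the mouse were followed through serum stimulation of embryonic fibroblasts. They were taken as every gene whose symbol is Hox, a cluster letter from a to d and a number, and 38 of the 15895 genes in the table fit this rule, 11 of the Hoxa cluster and 9 each of the Hoxb, Hoxc and Hoxd clusters. Hoxb1 was not analysed here. Within the table no measured value entered this choice. Every gene of the table reaches at least 3.969 in some library, so a Hox gene without signal is not among the 38.

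Hox genes encode homeodomain transcription factors that give cells their address along the body axis and along the limb. They lie in clusters in which the order of the genes follows the order of their domains, with low paralogue numbers at the head end of the cluster and high numbers toward the tail and the tip of the limb. Genes with the same number in different clusters are paralogues. Fibroblasts keep a Hox code after they leave the embryo, so a culture from a whole embryo holds the codes of many body positions side by side. The Hox proteins bind DNA together with TALE homeodomain partners of the Pbx and Meis families, Polycomb and Trithorax complexes keep the clusters off or on, and retinoic acid switches on the head-end genes in the embryo.

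Primary fibroblasts came from Cf-1 mouse embryos at embryonic day 13 (MEF), with no genetic change. They were held for 36 h in 0.5% fetal calf serum, which stops proliferation, and serum was then raised to 20%, which sends them back into the cell cycle. RNA was sequenced in a pair of time courses called cycle 1 and cycle 2, with 64 libraries of cycle 1, which ran from -1 to 38 h relative to serum and of which that at 12.5 h was not analysed here, and 32 of cycle 2, which ended at 27 h. A culture of this kind is a mix of mesenchymal cells from many parts of the body. Each hour was sampled once in a cycle, so the replicates are the 2 cycles, and nothing says whether they came from separate embryos. The starved group is the libraries at -1 and 0 h, every later group had 20% serum, and no culture was kept in low serum to the end. Values are a normalized signal, the reads on exons of a gene after every library was scaled to the same total. In such bulk samples fewer cells of a type and less RNA per cell cannot be told apart.

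Sequences of the clusters that bear on the values are shown first. The microRNAs of the miR-196 and miR-10 families lie inside the Hox clusters and are known to repress Hox RNAs. Their mature sequences, from RefSeq GRCm38.p6 and with the seed, bases 2 to 8, in capitals, fall into 2 seed groups.
mmu-miR-10a-5p: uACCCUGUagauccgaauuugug
mmu-miR-10b-5p: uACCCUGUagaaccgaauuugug
mmu-miR-196a-5p: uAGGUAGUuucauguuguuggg
mmu-miR-196b-5p: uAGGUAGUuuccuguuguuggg
The microRNAs themselves were not measured here. The letters ACTACCT, which pair with the miR-196 seed, occurred in the annotated 3′ UTR of 8 of 38 Hox genes, against 6.88% of the 14052 genes of the table with a 3′ UTR. The genes with sites included Hoxa4, Hoxa5, Hoxa7, Hoxa9, Hoxb6, Hoxb7 and Hoxc8. The sites of Hoxa7 and Hoxc8, the genes with the most, are given in NCBIM37 coordinates with the 7 paired letters in capitals.
Hoxa7 site 1, chr6:52165388-52165417, minus strand: acagccaaaatACTACCTagcacaggcctc
Hoxa7 site 2, chr6:52165351-52165380, minus strand: ggcactcccaaACTACCTatgggcccagcc
Hoxa7 site 3, chr6:52165219-52165248, minus strand: ccatgatcaatACTACCTactactagccct
Hoxa7 site 4, chr6:52165198-52165227, minus strand: actagccctaaACTACCTattgtgtgctgg
Hoxc8 site 1, chr15:102823410-102823439, plus strand: tcacaactctaACTACCTgtcagatagttg
Hoxc8 site 2, chr15:102824167-102824196, plus strand: atctttaacatACTACCTaaagggaacctg
Hoxc8 site 3, chr15:102824305-102824334, plus strand: cgtattttatcACTACCTatagaaagaaat
The miR-10 letters ACAGGGT occurred in 2 Hox genes, Hoxd1 among them, or 5.26%, against 13.3% of all. The AU-rich letters TATTTAT, of a kind found in short-lived RNAs, occurred in 16 of 38 Hox genes, 42.1%, against 27.8% of all genes.

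Promoter sequences of RefSeq, 250 bases before to 50 after the start of a gene, were found for 21 of the 38 Hox genes. A Hox gene was counted if any of its windows held the letters, whereas the comparison is the share of single windows. Genes with several windows thus have more chances, and the 2 shares are not alike in unit. The CCAAT box was in a window of 14 of the 21, 66.7%, against 37.4% of all 32851 promoter windows, counting both strands. The E-box CACGTG was in 5, 23.8% against 7.15%, and these were Hoxd1, Hoxd4, Hoxd10, Hoxd11 and Hoxd13, all of the Hoxd cluster. That cluster gave all 9 of its genes to the 21, Hoxa gave 9, Hoxb 2 and Hoxc 1. The TATA box letters TATAAA were in 4 (19.0% against 13.6%), GGGCGG in 10 (47.6% against 35.7%) and TGATNNAT, a Pbx and Hox composite, in 3 (14.3% against 8.85%). The AP-1 letters TGANTCA, which the serum-induced Fos and Jun proteins bind, were in 1 gene, Hoxd11 (4.76% against 7.81%). TGACGTCA was in none of the Hox windows and in 1.79% of all. The windows of Hoxa10, with the highest level per kb in starved cells, and of Hoxd10 and Hoxd13, with E-boxes and unequal later courses, are printed with the TATA box, the CCAAT box and the E-box in capitals, on either strand. In Hoxd13 the TATA box matches of both strands overlap. The Hoxa10 window was kept because it holds TATAAA. It lies inside the annotated gene, chr6:52181196-52190853, and the Hoxd10 window lies inside chr2:74529147-74533163. The positions of the windows were found by matching the sequence to NCBIM37.
Hoxa10, chr6:52184889-52185188, minus strand: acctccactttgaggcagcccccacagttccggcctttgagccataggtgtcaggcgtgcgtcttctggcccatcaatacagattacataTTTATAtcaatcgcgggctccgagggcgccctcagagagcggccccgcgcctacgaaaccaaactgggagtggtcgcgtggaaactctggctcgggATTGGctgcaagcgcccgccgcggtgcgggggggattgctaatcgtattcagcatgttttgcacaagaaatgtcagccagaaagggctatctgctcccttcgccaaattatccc
Hoxd10, chr2:74529698-74529997, plus strand: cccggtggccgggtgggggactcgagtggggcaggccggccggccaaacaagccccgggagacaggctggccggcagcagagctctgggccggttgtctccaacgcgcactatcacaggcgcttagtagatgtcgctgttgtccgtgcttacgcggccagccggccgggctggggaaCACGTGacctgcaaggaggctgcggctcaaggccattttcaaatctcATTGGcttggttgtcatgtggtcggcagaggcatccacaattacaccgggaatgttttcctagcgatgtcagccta
Hoxd13, chr2:74506032-74506331, plus strand: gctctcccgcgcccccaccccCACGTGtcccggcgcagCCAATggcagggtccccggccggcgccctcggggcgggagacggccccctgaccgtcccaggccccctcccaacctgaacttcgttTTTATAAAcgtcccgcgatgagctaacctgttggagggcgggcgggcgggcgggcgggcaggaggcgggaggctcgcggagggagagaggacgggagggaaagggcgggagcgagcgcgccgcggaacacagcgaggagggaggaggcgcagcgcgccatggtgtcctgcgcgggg

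In the annotation of NCBIM37 the clusters lie at chr6:52105366-52210874 (Hoxa), chr11:96055630-96217003 (Hoxb), chr15:102751534-102867274 (Hoxc) and chr2:74506367-74603200 (Hoxd). The authors' counting took reads of both strands, so an antisense RNA that overlaps a Hox exon adds to that gene. Exons of 18 of the 38 genes overlap those of another annotated gene, 12 on the same strand and 8 on the opposite strand. Pairs that share exons are Hoxa2 with Hoxa3, Hoxb7 with Hoxb8 and Hoxd3 with Hoxd4, and their values are uncertain to that extent. Hoxa3, Hoxa7, Hoxa11, Hoxb2, Hoxb3, Hoxb5 and Hoxd3 are among those with an antisense partner.

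Several libraries stood apart from their labels or neighbours. Fos, an immediate early gene that serum induces within minutes, was at 914 at -1 h and 24883 at 0 h in cycle 1, and at 466 and 15149 in cycle 2. Egr1 went from 3404 to 28363 and from 1760.0 to 18343 between the same libraries, and Jun from 1102 to 9812 and from 890.0 to 6778. The study's methods describe a sampling just before serum was added. By these values the libraries labelled 0 h may instead have been taken after it, which the labels do not settle. Both 0 h libraries are part of every starved mean and per-kb level below. Hox RNA was lower at 0 h than at -1 h in 31 of 38 genes in cycle 1 and 25 in cycle 2 (all genes, 59.7% and 56.7%), with median ratios of 0.798 and 0.917. Every count of Hox calls below was therefore repeated with the -1 h library alone as the starved level. At 27 h of cycle 2 Egr1 dropped from 1598 to 63.6 and Fos from 171 to 13.7 within the hour, and between 33 and 34 h of cycle 1 Egr1 dropped from 452 to 66.4 and Fos from 22.9 to 9.97. The 24.5 h library of cycle 1 lay furthest from its neighbours in time and has no partner hour in cycle 2. The table holds 4352235 to 12551892 reads per library in the 93 libraries whose reads could be counted back from the smallest step of their values, with a median of 9411985, and 1 read was worth 0.69 to 1.97 units.

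In starved cells all 38 Hox genes gave signal, and the posterior paralogues held the largest share. Per kb of the longest coding transcript, Hoxa10, which patterns the lumbar spine and the uterus, was highest at 176 ± 43.9 units (SD, n = 4 starved libraries). Hoxc6 at 135 ± 14.6, Hoxc8 at 131 ± 18.2 and Hoxc10 at 127 ± 7.29, genes of thoracic and lumbar levels, and Hoxb9 at 109.9 ± 9.50 were the only others above 100. Hoxd8 at 91.1 ± 7.94, Hoxd13, the digit gene, at 89.8 ± 23.7 and Hoxb3 at 86.0 ± 18.8 came next. In this order of 38 genes no 2 neighbours were apart, since the ranges over the starved libraries overlapped in each of the 37 pairs of neighbours.

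By position along the cluster, paralogues 9 to 13 (16 genes) made up 49.9% of the summed starved level per kb, paralogues 4 to 8 (15 genes) 38.8% and paralogues 1 to 3 (7 genes) 11.3%. By cluster the shares were 32.2% for Hoxc, 26.4% for Hoxa, 21.2% for Hoxd and 20.2% for Hoxb. Within the Hoxa cluster the level ran from 13.4 for Hoxa2 to 176 for Hoxa10 through lower levels at Hoxa4 (9.41), Hoxa6 (2.51) and Hoxa7 (14.5), and was 9.86 for Hoxa13. The tail end of the Hoxc cluster was low, with Hoxc11 at 4.90, Hoxc12 at 3.68 and Hoxc13 at 4.26. The Hoxd cluster ran the other way at its end, from 7.08 for Hoxd12 to 89.8 for its neighbour Hoxd13. The lowest levels per kb were those of Hoxa6, Hoxb13 (2.77) and Hoxc12. Of the 93 libraries with countable reads Hoxd1 was at or under 3 reads in 85, Hoxc12 in 66, Hoxa6 in 64, Hoxb13 in 49, Hoxd12 in 23 and Hoxa13 in 12, and their values carry large counting error.

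**Figure D1:**
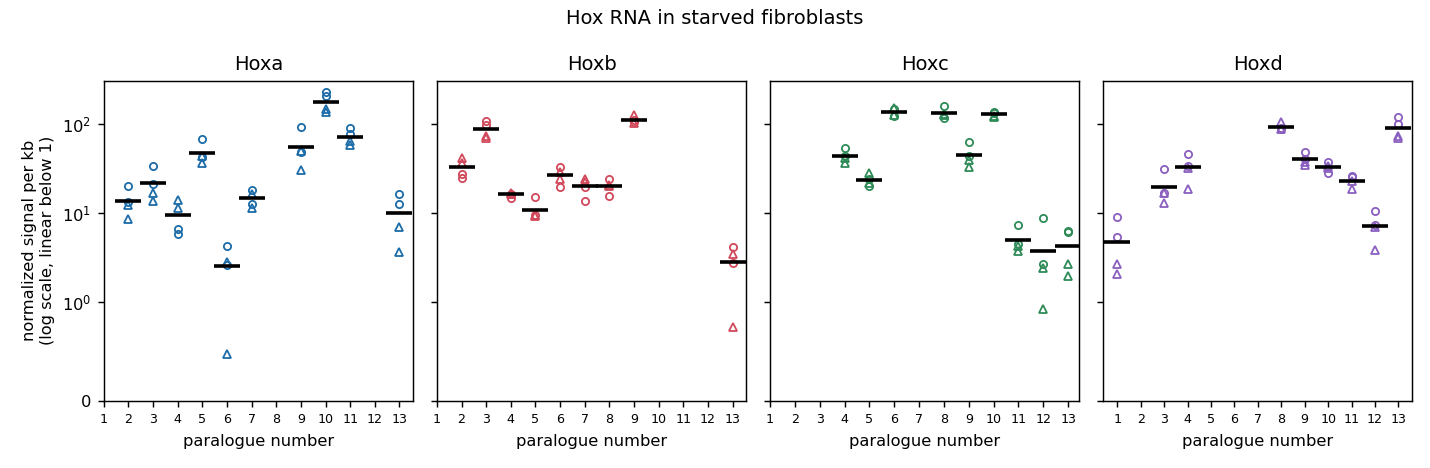
Normalized signal per kb of transcript (log axis, linear below 1) against paralogue number in the 4 clusters, in starved cells, for 37 Hox RNAs. Circles are the -1 and 0 h libraries of cycle 1, triangles those of cycle 2 and black bars the mean of the 4. Hoxa10 has the highest mean at 176, and the means of Hoxc11 to Hoxc13 lie at or below 4.90.

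After serum most Hox genes fell within 3 h, and most of these were no longer called from 9 h onward. Summed over the 38 genes, the signal was 4672 and 3829.9 in the starved libraries of cycle 1, reached its lowest value of 812 at 4 h, which is 0.191 of the starved mean, and averaged 0.784 of it at 25 to 27 h. In cycle 2 it was 3690.2 and 3354, lowest at 1447 (0.411), also at 4 h, and 1.04 at 25 to 27 h. That last mean leans on the 27 h library, with sums of 3289.5, 3313 and 4375 at 25, 26 and 27 h. The fall was deeper in cycle 1 than in cycle 2 in all 4 cluster sums.

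At 3 h the Hoxa sum stood at 0.116 of its starved mean in cycle 1 and 0.264 in cycle 2. The Hoxb sum kept the most, 0.34 and 0.542. The Hoxc sum was at 0.164 and 0.453, and the Hoxd sum at 0.223 and 0.384. At 25 to 27 h the Hoxb sum was above the starved mean in both cycles and the Hoxc sum in cycle 2, at 1.07 and 1.22 for Hoxb and 0.995 and 1.24 for Hoxc. The Hoxa sum was at 0.626 and 0.979, and the Hoxd sum at 0.518 and 0.659, the lowest of the clusters in both cycles. Against the -1 h library alone the 25 to 27 h sums were 0.552 and 0.937 for Hoxa, 0.99 and 1.17 for Hoxb, 0.924 and 1.21 for Hoxc and 0.474 and 0.611 for Hoxd, and 0.713 and 0.992 for all 38 genes. At 25, 26 and 27 h of cycle 2 the Hoxa sum was 698, 718 and 1144 and the Hoxb sum 1022, 947 and 1128.5. The Hoxc sum was 1096.5, 1153.5 and 1485 and the Hoxd sum 473, 495 and 618. The 27 h library was thus the highest for each cluster, and it enters every 25 to 27 h mean of cycle 2 below. A sum follows its most abundant members, so the single genes are given below.

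**Figure D2:**
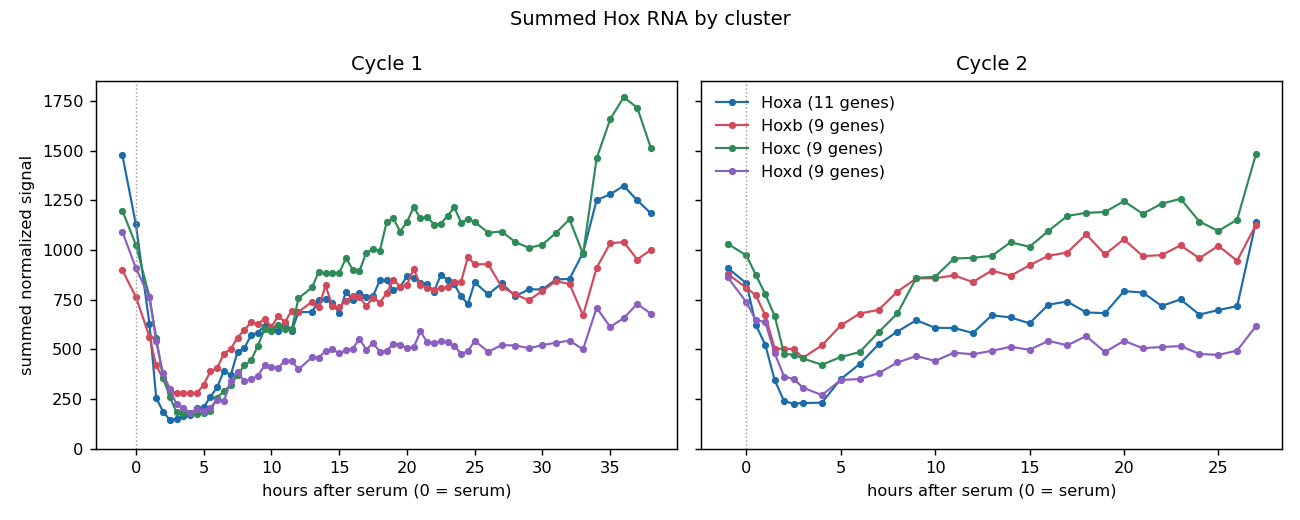
Summed normalized signal of the genes of each Hox cluster against hours after serum, in cycle 1 and cycle 2, with 1 point per library and the dotted line at serum addition. All 4 sums drop to a trough between 2.5 and 4.5 h in both cycles, and the Hoxd sum ends furthest below its start, at 25 to 27 h standing at 0.518 and 0.659 of its starved mean.

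Changes were tested on means of log2(value + 1) over the hours both cycles sampled, in windows of 1 to 3 h, 4 to 8 h, 9 to 14 h, 15 to 24 h and 25 to 27 h, each against the starved mean, with limma and the cycle as a block. A gene was called in a window where its adjusted p over all 15895 genes was under 0.05 and its log2 change above 1 in size, and over any window where the F test over the 5 windows passed and its largest change was above 1 in size. Over any window 29 of the 38 Hox genes fell (26.7% of all genes) and 2 rose, Hoxc13 among them (11.3%). At 1 to 3 h 29 of 38 fell by limma (10.1% of all genes) and 15 by edgeR. None rose by either tool (4.83% of all genes by limma), and no member had a limma change above 0. At 4 to 8 h 26 fell (16.5%), or 21 by edgeR, and 0 rose (7.17%). The 0 rises held by edgeR and with adjusted p alone. The falls then dwindled to 10 at 9 to 14 h (14.9%), 4 at 15 to 24 h (16.1%) and 6 at 25 to 27 h (18.1%). Rises were 2 in each of these windows, against 6.42%, 5.86% and 5.88% of all genes.

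The median log2 change of the Hox genes was -1.33 at 1 to 3 h, -1.37 at 4 to 8 h, -0.54 at 9 to 14 h, -0.20 at 15 to 24 h and -0.14 at 25 to 27 h, where the median of all genes was -0.26, -0.23, -0.14, -0.14 and -0.17. All 38 members were below 0 at 1 to 3 h, from -2.28 to -0.42, as were 68.1% of all genes. Rescaling each library by median of ratios moved the median of all genes at 1 to 3 h by more than 0.1, to -0.08, and the Hox median relative to it was -1.07 before and -1.06 after. That rescaling left 20 falls at 1 to 3 h, edgeR on summed reads left 15, and the fit without the replicate block 22. Counted by size alone, with no test, cycle 2 had 21 genes past that size at 1 to 3 h and 14 at 4 to 8 h, against 30 and 30 in cycle 1.

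Most members crossed 0.5 of their starved level within 2 h. Among the 29 Hox genes with a mean of at least 20 over all libraries, 5 were under 0.5 of the starved level of cycle 1 by 1 h, 22 by 1.5 h, 27 by 2 h and all 29 by 3 h. In cycle 2 the counts were 5, 14, 22 and 25, and Hoxb2, Hoxb9 and Hoxc9 never crossed 0.5. The share of all genes that cross by these hours was not counted. The lowest value up to 27 h came at a median of 3 h in both cycles, and the median of these lowest values was 0.139 of the starved level in cycle 1 and 0.316 in cycle 2. At 3 h 26 of the 38 genes were under 0.5 of the starved level in both cycles, against 15.5% of the genes with starved signal.

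**Figure D3:**
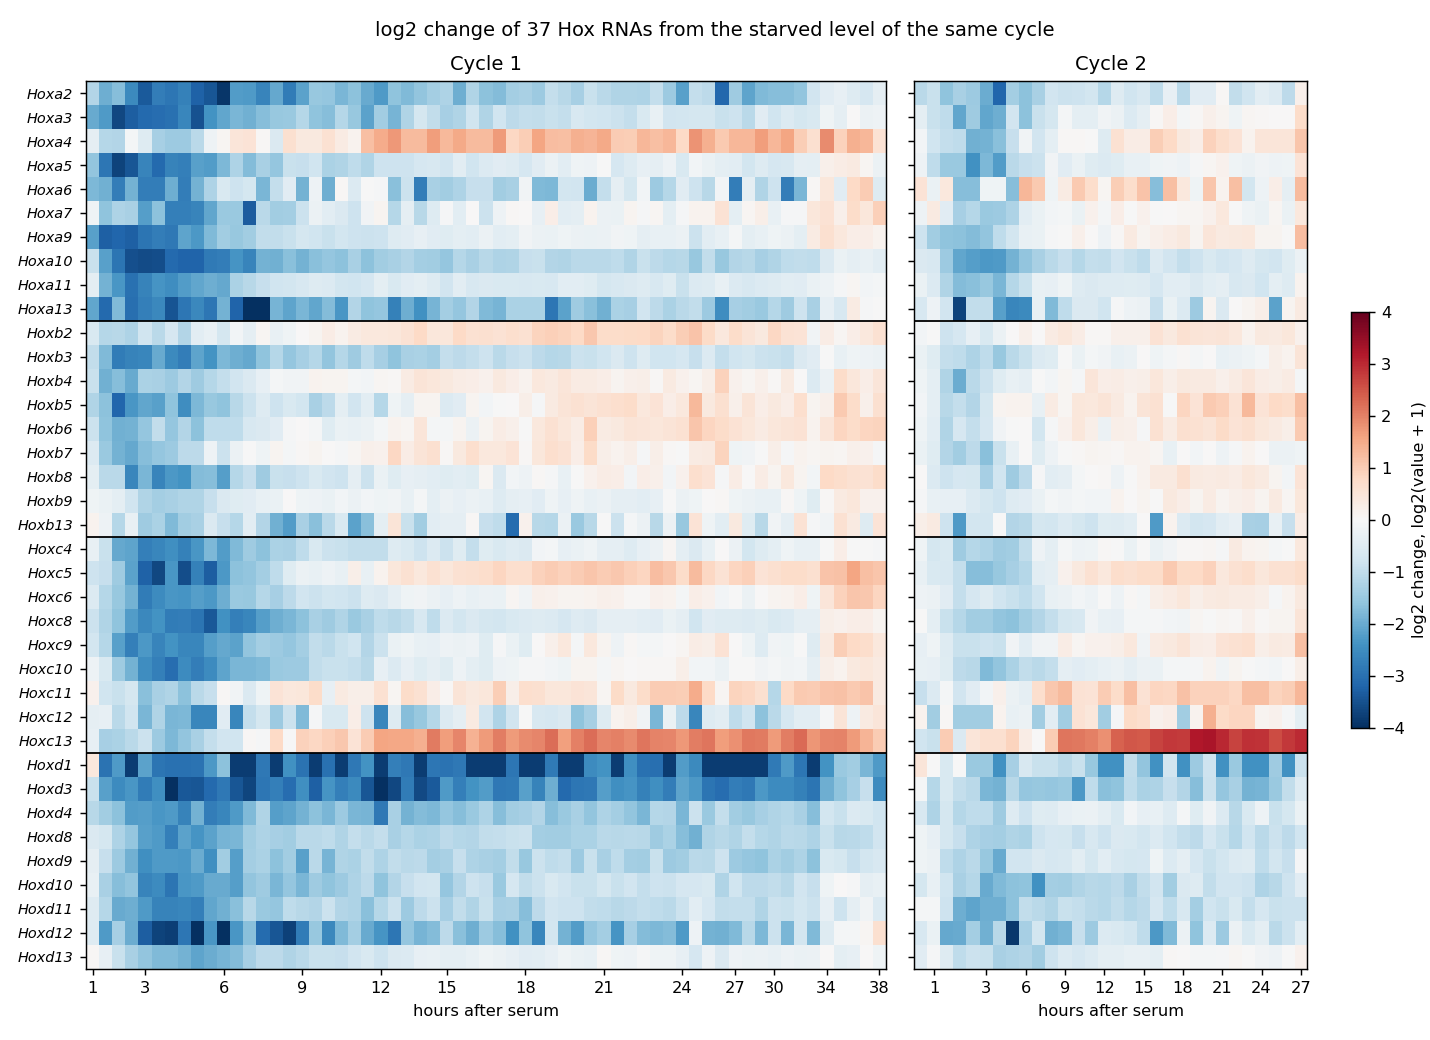
log2 change of 37 Hox RNAs (rows, by cluster and paralogue number, clusters parted by black lines) from the starved mean of the same cycle, on log2(value + 1), for each library after serum (columns, unevenly spaced hours), with colours ending at 4 in size. The blue band from 1.5 to 6 h spans nearly every row in cycle 1 and is paler in cycle 2, and Hoxc13 turns red afterwards while most Hoxd rows stay blue.

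In the Hoxa cluster 8 of 11 genes fell over any window. Hoxa9, a regulator of blood progenitors, read 293 and 155 in cycle 1 and 157 and 97.2 in cycle 2 at -1 and 0 h. It then read 46.9, 21.1, 22.8, 21.4 and 27.0 at 1, 1.5, 2, 2.5 and 3 h in cycle 1 and 46.4, 40.0, 38.9, 36.5 and 40.7 in cycle 2. All 10 of these libraries lay below all 4 starved ones. The log2 change at 1 to 3 h was -2.28 ± 0.31 (SE), the largest of the members in that window, with a limma F test over windows at adjusted p = 0.00343. At 25 to 27 h Hoxa9 averaged 177 in cycle 1 and 184 in cycle 2, a log2 change of 0.09, with the 27 h library of cycle 2 at 295 and the 26 h library before it at 122.

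Hoxa10 averaged 545 starved, 116 at 1 to 3 h, 85.9 at 4 to 8 h and 235 at 25 to 27 h in cycle 1 and 356, 117, 119 and 254 in cycle 2. Its log2 change was -2.18 ± 0.25 at 1 to 3 h and -0.86 at 25 to 27 h (F adjusted p = 0.00219), and its 25 to 27 h means lay below the starved means in both cycles. Hoxa5, needed for the lung and the cervical spine, went from 102 in starved cells to 15.0 at 1 to 3 h, 25.1 at 4 to 8 h and 77.0 at 25 to 27 h in cycle 1, and from 74.3 to 24.2, 39.0 and 79.9 in cycle 2 (log2 change -2.24 ± 0.27 at 1 to 3 h, adjusted p = 0.00251). Hoxa3, which patterns the thymus and parathyroid, went from 84.7 in starved cells to 11.6 at 1 to 3 h, 16.9 at 4 to 8 h and 47.0 at 25 to 27 h in cycle 1, and from 46.8 to 16.9, 21.1 and 57.5 in cycle 2 (-2.18 ± 0.30, adjusted p = 0.00378). At 25 to 27 h the log2 changes of Hoxa5 and Hoxa3 were -0.15 and -0.27, with adjusted p in that window of 0.675 and 0.476.

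Hoxa2, a gene of the second pharyngeal arch, fell further in the next window, with means of 40.0 starved, 9.25 at 1 to 3 h, 5.10 at 4 to 8 h and 12.0 at 25 to 27 h in cycle 1 and 25.1, 8.73, 8.33 and 18.8 in cycle 2 (log2 change -2.26 ± 0.31 at 4 to 8 h, adjusted p = 0.00665). Hoxa11, the forearm gene, averaged 222 starved, 66.6 at 1 to 3 h, 74.4 at 4 to 8 h and 162 at 25 to 27 h in cycle 1 and 162, 67.3, 93.1 and 138 in cycle 2 (-1.69 ± 0.23 at 1 to 3 h, adjusted p = 0.00488). The antisense RNA Hoxa11as overlaps it and also fell, and with reads of both strands counted the 2 cannot be told apart. Hoxa13, which shapes the hand and the genital tubercle, averaged 34.6 starved, 5.55 at 1 to 3 h, 5.07 at 4 to 8 h and 10.1 at 25 to 27 h in cycle 1 and 12.5, 5.60, 3.31 and 10.2 in cycle 2 (-2.33 ± 0.31 at 4 to 8 h, adjusted p = 0.00574). Its trough lies near the floor of 3 reads.

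Hoxa7 averaged 30.8 starved, 13.2 at 1 to 3 h, 6.26 at 4 to 8 h and 34.1 at 25 to 27 h in cycle 1 and 27.9, 17.5, 17.8 and 29.8 in cycle 2 (-1.50 ± 0.38 at 4 to 8 h, adjusted p = 0.0285), and lost its call by edgeR and with the -1 h libraries alone. Hoxa4 was not called, with -0.98 ± 0.21 at 1 to 3 h and 0.97 at 25 to 27 h, from 9.82 to 25.1 in cycle 1 and from 20.2 to 33.5 in cycle 2. Hoxa6 was not called either, at 5.90 and 2.80 in starved cells of cycles 1 and 2, within a few reads.

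In the Hoxb cluster 7 of 9 genes fell and none rose, and none was called from 9 h onward. Hoxb9, a thoracic gene with the highest level per kb of its cluster, read 281 and 271 in cycle 1 and 318 and 262 in cycle 2 at -1 and 0 h. It read 119 at 3 h and 107 at 3.5 h in cycle 1, and 175 at 3 h and 163 at 4 h in cycle 2. Its log2 change at 4 to 8 h was -0.59 ± 0.15, under the size for a call. Hoxb2, a hindbrain gene, was not called either, with means of 85.2 starved, 43.3 at 1 to 3 h, 60.5 at 4 to 8 h and 134 at 25 to 27 h in cycle 1 and 127, 91.9, 134 and 160.1 in cycle 2 and log2 changes of -0.73 ± 0.25 at 1 to 3 h and 0.49 at 25 to 27 h.

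Hoxb3 averaged 198 starved, 49.1 at 1 to 3 h, 53.9 at 4 to 8 h and 116 at 25 to 27 h in cycle 1 and 137, 71.9, 74.9 and 171 in cycle 2 (-1.56 ± 0.29 at 1 to 3 h, adjusted p = 0.0123), and its antisense neighbour Hoxb3os was not analysed here. Hoxb4, which expands blood stem cells when overproduced, went from 64.4 in starved cells to 22.2 at 1 to 3 h, 36.4 at 4 to 8 h and 89.8 at 25 to 27 h in cycle 1, and from 68.6 to 33.4, 57.8 and 77.9 in cycle 2 (-1.33 ± 0.22, adjusted p = 0.00362). Hoxb5 averaged 34.3 starved, 8.00 at 1 to 3 h, 13.2 at 4 to 8 h and 45.1 at 25 to 27 h in cycle 1 and 26.1, 14.2, 28.0 and 50.1 in cycle 2 (-1.47 ± 0.33, adjusted p = 0.00849). For both the 25 to 27 h means were above the starved means in the 2 cycles.

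Hoxb6 averaged 51.5 starved, 16.8 at 1 to 3 h, 24.7 at 4 to 8 h and 83.3 at 25 to 27 h in cycle 1 and 51.4, 29.9, 45.8 and 77.5 in cycle 2 (-1.18 ± 0.27 at 1 to 3 h, adjusted p = 0.00685). Hoxb7 averaged 63.6 starved, 22.7 at 1 to 3 h, 43.2 at 4 to 8 h and 84.4 at 25 to 27 h in cycle 1 and 88.1, 40.5, 69.5 and 76.1 in cycle 2 (-1.34 ± 0.24, adjusted p = 0.00666). Hoxb8, known for its part in myeloid progenitors, averaged 52.1 starved, 21.5 at 1 to 3 h, 17.6 at 4 to 8 h and 62.0 at 25 to 27 h in cycle 1 and 53.0, 30.1, 33.0 and 61.3 in cycle 2 (-1.18 ± 0.23 at 4 to 8 h, adjusted p = 0.0054). None of these 3 was past the size by edgeR at the same window. Hoxb13, the prostate and tail gene, averaged 7.57 in starved cells of cycle 1 and 4.64 in cycle 2, and 2.78 and 1.97 at 4 to 8 h (-1.01 ± 0.22, adjusted p = 0.0267). That call rests on few reads and was lost under most alternatives.

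In the Hoxc cluster 6 of 9 genes fell, Hoxc13 rose, and no fall was called from 9 h onward. Hoxc8, a thoracic and motor neuron gene, read 361 and 264 in cycle 1 and 288 and 291 in cycle 2 at -1 and 0 h. It read 51.1, 43.6, 39.8 and 56.7 at 3, 4, 5 and 6 h in cycle 1 and 110.2, 95.5, 91.6 and 109 in cycle 2, with no overlap with the starved libraries. The log2 change was -1.95 ± 0.25 at 4 to 8 h (F adjusted p = 0.00317), the largest fall in the cluster, and -0.13 at 25 to 27 h. Hoxc10, which marks lumbar levels and the hindlimb, averaged 253 starved, 119 at 1 to 3 h, 56.9 at 4 to 8 h and 233 at 25 to 27 h in cycle 1 and 230.2, 126, 103 and 239 in cycle 2 (-1.71 ± 0.26 at 4 to 8 h, adjusted p = 0.00485). Hoxc6, of the brachial and thoracic region, averaged 223 starved, 84.3 at 1 to 3 h, 62.8 at 4 to 8 h and 227 at 25 to 27 h in cycle 1 and 229, 155, 136 and 255 in cycle 2 (-1.31 ± 0.29, adjusted p = 0.0117).

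Hoxc4 averaged 102 starved, 39.4 at 1 to 3 h, 27.4 at 4 to 8 h and 90.2 at 25 to 27 h in cycle 1 and 81.2, 40.5, 46.7 and 88.9 in cycle 2 (-1.41 ± 0.24 at 4 to 8 h, adjusted p = 0.00558). Hoxc5 averaged 63.3 starved, 22.0 at 1 to 3 h, 16.8 at 4 to 8 h and 108 at 25 to 27 h in cycle 1 and 72.7, 34.5, 38.9 and 114 in cycle 2 (-1.47 ± 0.29, adjusted p = 0.00186), and its mean of 25 to 27 h was above the starved mean in both cycles. Hoxc9, which sets thoracic motor neuron identity, averaged 126 starved, 39.7 at 1 to 3 h, 31.3 at 4 to 8 h and 152 at 25 to 27 h in cycle 1 and 85.2, 54.5, 67.6 and 137 in cycle 2 (-1.24 ± 0.37 at 1 to 3 h, adjusted p = 0.0196). Its fall was past the size in cycle 1 and not in cycle 2. Hoxc11 was not called, at 11.8 and 8.00 in starved cells of cycles 1 and 2 and 18.3 and 18.0 at 25 to 27 h (0.83 ± 0.18). Hoxc12 was not called and lay near the floor, at 5.88 and 1.71 in starved cells.

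Hoxc13, the most posterior gene of the cluster and a regulator of hair and nail keratins, showed the largest rise of any member. It read 15.0 and 15.5 in cycle 1 and 4.77 and 6.59 in cycle 2 at -1 and 0 h. At 4 h it read 3.70 in cycle 1 and 9.36 in cycle 2, at 9 h 30.1 and 28.3, at 14 h 42.7 and 36.0 and at 20 h 64.3 and 62.8. From 9 h on all shared libraries were above all 4 starved ones. The log2 change was -0.42 ± 0.27 at 1 to 3 h, 1.66 at 9 to 14 h and 2.38 at 15 to 24 h (F adjusted p = 0.000726). In cycle 1 the signal then read 76.6 at 32 h and 32.0 at 38 h.

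**Figure D4:**
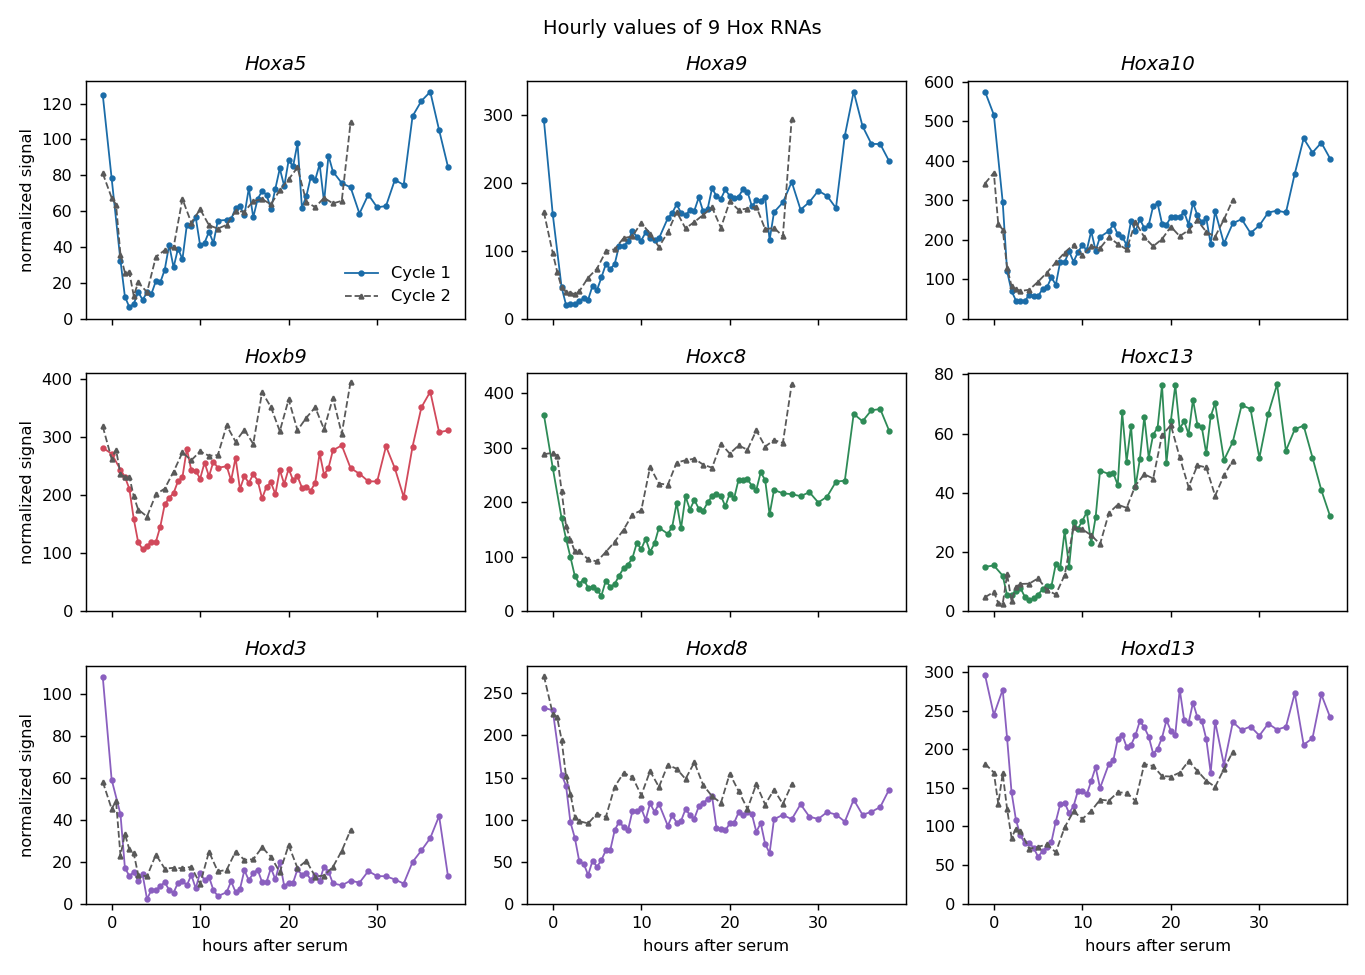
Normalized signal of 9 Hox RNAs against hours after serum, with cycle 1 as coloured circles and cycle 2 as grey triangles, 1 point per library. Hoxa5, Hoxa9 and Hoxc8 drop and return, Hoxb9 dips to 107, Hoxc13 ends above the start, and Hoxa10, Hoxd3 and Hoxd8 are below it at 25 to 27 h.

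The Hoxd cluster held most of the falls called from 9 h onward. Over any window 8 of 9 genes fell. At 9 to 14 h 7 of the 10 Hox genes that fell were of this cluster, and at 15 to 24 h all 4 were. At 25 to 27 h 4 of 6 were, and the other 2 were Hoxa2 (-1.17) and Hoxa13 (-1.15). At 15 to 24 h Hoxa2 (-0.96), Hoxa10 (-0.95) and Hoxa13 (-0.94) were just under the size for a call. Their limma adjusted p in that window was 0.0395, 0.0206 and 0.0441. The median log2 change of the cluster was -0.95 at 25 to 27 h, against -0.27 for Hoxa, 0.22 for Hoxb and 0.09 for Hoxc. Hoxd8 read 233 and 229.8 in cycle 1 and 271 and 226 in cycle 2 at -1 and 0 h and 101, 106 and 100.4 at 25, 26 and 27 h of cycle 1 and 136, 119 and 142 of cycle 2, with no overlap. Its log2 change was -1.50 ± 0.20 at 4 to 8 h and -1.04 at 25 to 27 h (F adjusted p = 0.00675).

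Hoxd3, of the anterior paralogues, was called in every window, and its lowest value lay at the floor of 3 reads. It read 108 and 59.3 in cycle 1 and 58.2 and 45.3 in cycle 2 at -1 and 0 h and 2.22, 13.8, 16.0 and 17.8 at 4, 9, 15 and 24 h of cycle 1 and 13.1, 17.6, 21.0 and 13.5 of cycle 2. The log2 change was -2.50 ± 0.44 at 4 to 8 h and -1.96 at 25 to 27 h (F adjusted p = 0.0152). Hoxd1, at the head end of the cluster, read 16.5 and 10.0 in cycle 1 and 3.82 and 4.94 in cycle 2 in starved cells and averaged 0 in cycle 1 and 0.978 in cycle 2 at 25 to 27 h (-2.68 ± 0.45, adjusted p = 0.0109), at or under 3 reads in each of these libraries, so this size depends on the pseudocount. Hoxd4 shares exons with Hoxd3 and averaged 101 starved, 31.1 at 1 to 3 h, 22.2 at 4 to 8 h and 40.9 at 25 to 27 h in cycle 1 and 64.5, 30.3, 37.6 and 40.8 in cycle 2. It was not called over all windows (F adjusted p = 0.0527), though its windows of 1 to 3 h (-1.37 ± 0.35), 4 to 8 h (-1.45) and 9 to 14 h (-1.11) were.

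The posterior Hoxd genes pattern the limb. Hoxd9 averaged 95.6 starved, 39.9 at 1 to 3 h, 28.9 at 4 to 8 h and 43.4 at 25 to 27 h in cycle 1 and 78.0, 39.9, 42.1 and 54.2 in cycle 2 (-1.34 ± 0.21 at 4 to 8 h, adjusted p = 0.01). Hoxd10 averaged 86.2 starved, 33.9 at 1 to 3 h, 19.8 at 4 to 8 h and 47.1 at 25 to 27 h in cycle 1 and 85.5, 42.0, 25.4 and 50.0 in cycle 2 (-1.94 ± 0.15, adjusted p = 0.000915). Hoxd11, a partner of Hoxa11 in the forearm, averaged 97.2 starved, 35.7 at 1 to 3 h, 26.0 at 4 to 8 h and 52.5 at 25 to 27 h in cycle 1 and 79.3, 35.1, 30.9 and 42.7 in cycle 2 (-1.68 ± 0.18, adjusted p = 0.00246). All 3 were at log2 changes between -0.87 and -0.83 at 25 to 27 h, with adjusted p in that window of 0.0148, 0.00478 and 0.00777, short of the size for a call.

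Hoxd12 averaged 23.1 starved, 6.95 at 1 to 3 h, 1.67 at 4 to 8 h and 5.57 at 25 to 27 h in cycle 1 and 14.0, 4.71, 4.17 and 7.51 in cycle 2, the largest log2 fall of any member at -2.70 ± 0.40 at 4 to 8 h (adjusted p = 0.0117), with a trough at the floor. Hoxd13 was still within its starved range, or just below it, at 1 h. It read 296 and 244 in cycle 1 and 181 and 169.8 in cycle 2 at -1 and 0 h, 277, 144, 88.5 and 60.9 at 1, 2, 3 and 5 h of cycle 1 and 169, 85.6, 94.4 and 73.7 of cycle 2. Its log2 change was -0.74 ± 0.14 at 1 to 3 h and -1.40 at 4 to 8 h (F adjusted p = 0.00163), and it was at -0.17 at 25 to 27 h, unlike the other Hoxd genes. Its promoter window and that of Hoxd10, printed above, both hold CACGTG and CCAAT.

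**Figure D5:**
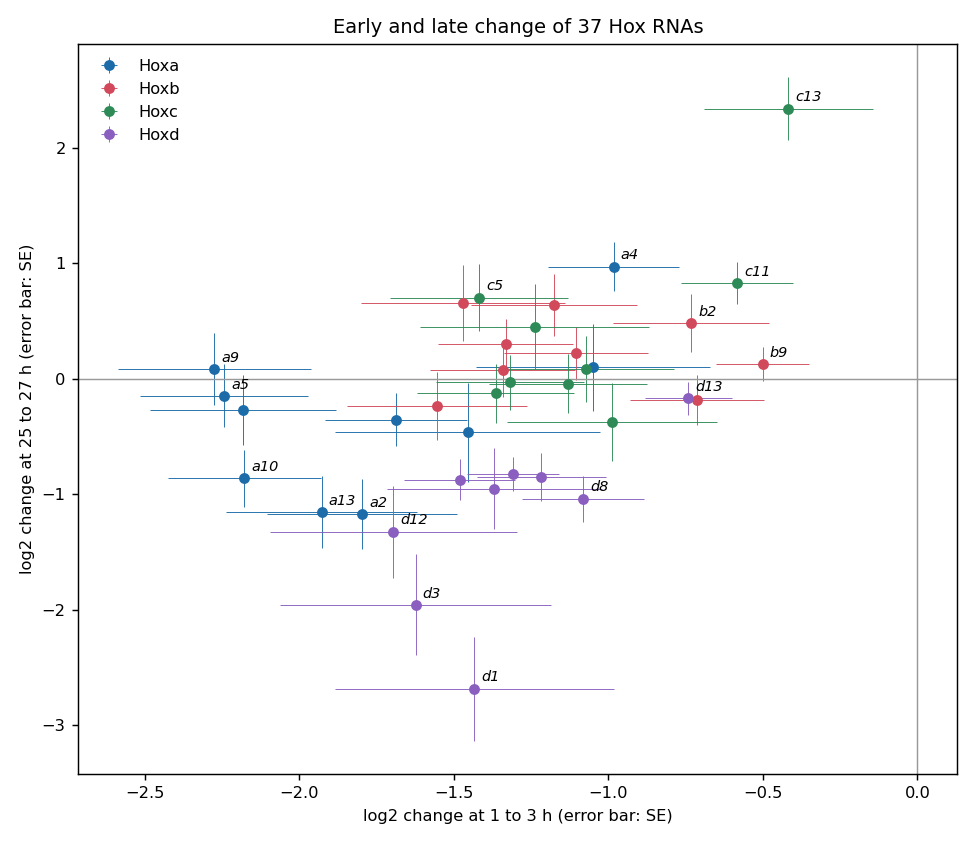
log2 change at 25 to 27 h against log2 change at 1 to 3 h for 37 Hox RNAs, coloured by cluster, with bars of 1 SE. All points lie left of 0 on the early axis, Hoxc13 lies highest on the late axis (2.34), and the Hoxd points lie below 0 there.

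Between the trough and the end of the shared hours, the mean of log2(value + 1) at 4 to 8 h was set against that at 25 to 27 h. Ratios of the plain window means printed above can differ from this measure. By it 13 of the 38 Hox genes were higher by more than 1 in both cycles, against 3.35% of all genes. They were 6 of the Hoxa, 1 of the Hoxb, 4 of the Hoxc and 2 of the Hoxd cluster. By paralogue number the fall was spread over all positions. At 1 to 3 h 6 of 7 anterior, 13 of 15 central and 10 of 16 posterior genes fell, with medians of -1.56, -1.33 and -1.23. At 25 to 27 h the medians were -0.27, 0.09 and -0.27, and the falls called were 3 anterior, 1 central and 2 posterior.

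The 3′ UTR letters shown above were set beside the early falls. Genes with TATTTAT had a median log2 change of -1.33 at 1 to 3 h and those without it -1.33, and genes with the miR-196 letters had -1.29 against -1.33 without. These are medians over 16 and 22 genes and over 8 and 30 genes, given as a description.

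The size of the response was compared between the cycles. The mean log2 change over the 5 windows differed between them for 3 Hox genes by a limma contrast that takes the libraries of neighbouring hours as replicates (13.2% of all genes). Hoxb3 was at -1.44 in cycle 1 and -0.36 in cycle 2 (difference 1.08 ± 0.33, adjusted p = 0.0231), Hoxd3 at -2.80 and -1.31 (1.49 ± 0.51, adjusted p = 0.0436) and Hoxd4 at -1.71 and -0.63 (1.08 ± 0.35, adjusted p = 0.0317). All 3 fell less in cycle 2. No such call was left without the -1 h library of cycle 1, without the 0 h library of cycle 2 or with the -1 h libraries alone.

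Beyond 27 h only cycle 1 was sampled, and no test was made. The summed Hox signal averaged 0.751 of the starved mean at 28 to 33 h and 1.07 at 34 to 38 h. In 19 of the 38 genes every library of 34 to 38 h was above every library of 28 to 33 h, against 11.8% of all genes. Hoxc6 read 265, 196, 312, 423 and 482 at 32, 33, 34, 35 and 36 h, and Hoxa10 read 274, 269, 368, 456 and 421. In cycle 2 a similar step came at 27 h, where 31 of 38 Hox genes were above each of their 24, 25 and 26 h values, against 37.5% of all genes. Both steps came with the drop in Egr1 and Fos given above, whose part in them was not tested. At 38 h of cycle 1 Egr1 read 247 and Fos 32.0, above their 34 h values, and the summed Hox signal was 4382. Without the 27 h library of cycle 2, 7 Hox genes fell at 25 to 27 h.

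Partners and regulators of Hox genes were taken as lists. For each, the share of all genes that fell over any window, 26.7%, and rose, 11.3%, is the background. Of 9 TALE cofactors 5 fell and 0 rose over any window. Pknox2 went from 287 to 120.2 in cycle 1 and from 278 to 73.6 in cycle 2 at 3 h (log2 change -2.71 at 9 to 14 h, adjusted p = 0.00132) and Meis2 from 727 to 85.4 in cycle 1 and from 485 to 183 in cycle 2 (-2.28 at 4 to 8 h, adjusted p = 0.00402). Pbx2 was at -1.39 (adjusted p = 0.00215) and Meis1 at -1.16 (adjusted p = 0.028), both at 1 to 3 h.

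Of 29 Polycomb genes 9 fell and 2 rose over any window. The chromobox subunits that read H3K27 methylation were among the 4 largest changes, Cbx2 at -2.32 (from 104 to 21.6 in cycle 1 and from 88.0 to 30.6 in cycle 2 at 3 h, adjusted p = 0.00105), Cbx6 at -1.98 (adjusted p = 0.006) and Cbx8 at -1.88 (adjusted p = 0.00115), with Phf19 at -1.99 (adjusted p = 0.0217). Of 12 genes of the MLL and H3K27 demethylase complexes 2 fell, Mll3 at -1.38 (adjusted p = 0.0172) and Men1 at -1.04 (adjusted p = 0.00524), and 1 rose, the demethylase Kdm6b at 1.34 at 1 to 3 h (from 691 to 898 in cycle 1 and from 612 to 1034 in cycle 2 at 3 h, adjusted p = 0.000318). Kdm6b then fell, with -1.15 at 15 to 24 h (adjusted p in that window 0.00178).

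Of 16 genes of the retinoic acid pathway 10 fell and 1 rose. The riser was Aldh1a3, an enzyme that makes retinoic acid, from 59.1 to 1797 in cycle 1 and from 29.1 to 663 in cycle 2 at 3 h (log2 change 5.96 at 4 to 8 h, adjusted p = 0.00115). The binding protein Crabp2 was at -3.88 at 25 to 27 h (adjusted p = 0.000367), the retinal reductase Dhrs3 at -2.32 at 4 to 8 h (adjusted p = 0.00265) and Aldh1a2, the main embryonic enzyme, at -2.13 at 25 to 27 h (adjusted p = 0.00234). A further synthesis enzyme, Aldh1a1, was also called as fallen, at -1.43 (adjusted p = 0.00256).

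Of 12 neighbours of the clusters and RNAs within them 5 fell and 0 rose. Hotair, a noncoding RNA of the Hoxc cluster, was at -1.65 with starved levels of 6.79 and 5.20 (adjusted p = 0.00555), Calcoco1 at -1.58 (adjusted p = 0.0461), Mira at -1.48 (adjusted p = 0.0066) and Hoxa11as at -1.29 (adjusted p = 0.0325). The flanking genes Snx10 and Mtx2 were not called, with largest changes of -0.87 and -0.45.

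Of 40 other position factors of limb and trunk 21 fell and 6 rose over any window. At 1 to 3 h alone 18 fell (10.1% of all genes) and 3 rose. Meox2, a somite homeobox gene, went from 399.6 to 14.4 in cycle 1 and from 122 to 30.6 in cycle 2 at 3 h (log2 change -3.12, adjusted p = 0.00639) and the forelimb gene Tbx5 from 127 to 6.48 in cycle 1 and from 68.0 to 14.8 in cycle 2 (-2.45, adjusted p = 0.00745), both largest at 4 to 8 h. Dlx2, a gene of branchial arches, rose from 8.16 to 97.2 in cycle 1 and from 3.75 to 50.9 in cycle 2 at 3 h (4.88 at 15 to 24 h, adjusted p = 4.85e-05).

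The fibroblast label was checked against its markers. The 8 fibroblast markers summed to 338870 to 352830 in the starved libraries of cycle 1 and 256320 to 272380 of cycle 2, and to 257320 to 320980 and 249080 to 274560 at 2 to 4 h, the hours of the Hox trough. The 6 epithelial markers summed to at most 599, the 4 endothelial markers to at most 272 and the 5 blood and macrophage markers to at most 731 in these libraries. The 3 muscle markers went from 609 to 697 in starved cells to 401 to 512 at 2 to 4 h of cycle 1, and from 1658 to 1667 to 906 to 1137 of cycle 2, with Des the most abundant. The 5 neural markers reached 3792 and 2517 at 2 to 4 h, with Nes the most abundant, and the 3 cartilage markers 919 and 599.7. The lowest marker mean over all libraries was that of Myod1, at 4.76. Of the listed markers, Myf5 of muscle and Adgre1 of blood were not in the table. Every gene of the table reaches at least 3.969 in some library, so none could have a mean of 0. The part of these shifts in the Hox changes was not tested.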

How the data were processed

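RNA of 96 libraries of serum-stimulated mouse embryonic fibroblasts was sequenced as stranded poly(A) libraries, single-end 50 bp, 12 to a lane. Per the labels and the study's methods, the authors demultiplexed with CASAVA, aligned with STAR to mm9, counted exon reads with HOMER and normalized them, with versions not given in the sources used here. The deposited values are a normalized signal per gene, each library scaled to a common total. For genes with several transcripts they can be averages, which lie off whole reads. Reads were recovered from the smallest step of the values in 93 of the 95 libraries used, where 94.2% to 96.2% of low values were whole multiples within 0.1 of a step. Of 96 columns, 1 could not be matched to a library by its name and was not used, which left out the 12.5 h library of cycle 1.

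Means of log2(value + 1) per cycle and window, over the 31 hours both cycles sampled (starved hours included), were fitted with limma 3.58.1 in R 4.3.3, with the cycle as a block and Benjamini-Hochberg adjustment over 15895 genes. No filter on low values was added to the deposited table, in which every gene reaches at least 3.969 in some library. Fold changes on this scale understate the change of low genes. The cycles count as replicates, and p-values measure the spread between them, which may be technical. The cycles paired: deviations from group means correlated at a median of 0.45 (0.147 to 0.716) over 15 pairs of groups. The contrast between cycles used single libraries as units. edgeR 4.0.16 on recovered reads was an alternative, as were pseudocounts, a filter on low values, rescaling, other units and libraries, and starved libraries left out. The scripts were tested on simulated data. Values after ± are SDs over the starved libraries or SEs of the limma fits. The floor of 3 reads covers counting error only. The rule named every member and, from each list of other genes the 4 called genes with the largest change. Some items that it would name are not reported here, though counts, medians and sums include them. Snx10, Mtx2 and Aldh1a1 were chosen after their values were seen. The members and lists were chosen with earlier results of these data known. Sequences came from RefSeq tables and NCBIM37. Python 3.11.15, numpy 2.4.6, pandas 2.3.3 and matplotlib 3.10.9 were used.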

Additional observations from a re-analysis of the deposited data

Results flagged for a closer look

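In 116 groups of 4 to 6 libraries, 2 held a library set apart from the rest by Dixon's test, which chance alone does in about 1 group in 20. Gaps and ranges were taken on log2(value + 1), while the values printed are on the plain scale. Hoxa3 stood at 78.3 in the 27 h library of cycle 2, with a gap to the next library of 0.752 of the range of the 6 libraries at 25 to 27 h. Hoxb5 stood at 42.1 in the -1 h library of cycle 1, with a gap of 0.911 of the range of the 4 starved libraries.

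The change after serum differed between the cycles for 3 of 38 Hox genes by the limma contrast of the cycles, against 13.2% of all genes. No call was left without the -1 h library of cycle 1, without the 0 h library of cycle 2 or with the -1 h libraries alone. The change in cycle 2 minus that in cycle 1 was 1.08 on the log2 scale for Hoxb3, 1.49 for Hoxd3 and 1.08 for Hoxd4, so each fell less in cycle 2. Hoxd3 and Hoxd4 share exons and are not independent.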

How the results depend on the processing

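The count of Hox genes that fell over any window stayed between 23 and 32 under every alternative run. With the replicate block left out, 26 genes fell over any window, 22 at 1 to 3 h and 25 at 4 to 8 h, and no count changed by more than 1.5 times. With starved levels from the -1 h libraries alone, an alternative chosen after seeing the data, 1 gene rose over any window, 1 rose at 9 to 14 h, 8 fell at 15 to 24 h and 0 differed between cycles. By edgeR 15 fell at 1 to 3 h and 3 at 25 to 27 h. With a minimum mean of 10, 2 fell at 15 to 24 h and 3 at 25 to 27 h. With a pseudocount of 5, 3 fell at 25 to 27 h and 5 differed between cycles. With adjusted p alone, 4 rose at 15 to 24 h and 4 at 25 to 27 h, and 11 and 10 fell. Leaving out 1 replicate or starved library at a time gave 0 to 1 rises and 14 to 30 falls at 4 to 8 h, 1 to 2 rises and 5 to 16 falls at 9 to 14 h, 3 to 10 falls at 15 to 24 h, 2 to 10 falls at 25 to 27 h and 0 to 2 genes that differed between cycles. Each lowest count of falls was that of cycle 2 alone (at 15 to 24 h also that without its -1 h library) and each highest that of cycle 1 alone, counted by size with no test. Without the 0 h library of cycle 2, 8 genes fell at 15 to 24 h and 1 rose at 9 to 14 h. No count of calls and no named log2 change turned its direction, but with the -1 h libraries alone the Hox median at 25 to 27 h went from 0.03 above that of all genes to -0.10 relative to it. The causes of these shifts were not tested. Depth limits Hoxd1, Hoxc12, Hoxa6, Hoxb13, Hoxd12 and Hoxa13, whose troughs lie near 3 reads.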
